A study of Homo sapiens with 9 samples.

Results

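The genes described here carry the signal of insulin and the insulin-like growth factors (IGFs) from the cell surface to the lipid kinase PI3K. They are the receptors IGF1R, INSR and IGF2R, the adaptors IRS1, IRS2 and IRS4, the PI3K regulatory subunits PIK3R1 and PIK3R2, and the secreted IGF binding proteins IGFBP2 and IGFBP4. Members were taken as the probe sets whose single gene symbol is one of these 10 names. That gave 34 of the 49386 probe sets on the array and 9 of the 10 genes, whereas PIK3R2 has no probe set under its symbol alone and is not analysed here. Over the whole array 45259 probe sets carry a single symbol, for 18239 genes.

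Expression had been measured on Affymetrix U219 arrays in HEK293T, a human embryonic kidney cell line that carries the SV40 large T antigen, after the level of BRD1 was raised or lowered. BRD1 is a bromodomain protein that holds histone acetyltransferase complexes together. The study linked the short isoform to IGF-1 signalling, and the question here was how the transcripts of this receptor system stood on each of the 9 arrays. Untreated cells gave 1 array, as did the line with BRD1-S (the short isoform, with a His6/V5 tag, in stable/episomal expression) and the matching BRD1-L line (the long isoform). The other 6 arrays form 3 pairs of BRD1 siRNA and control siRNA in otherwise unmodified HEK293T cells, 1 pair with a Qiagen kit and 2 pairs, here Dharmacon 1 and Dharmacon 2, with a Dharmacon kit. GEO's labels call the siRNA controls mock, while the study describes scrambled siRNA. Each overexpressing line is represented by 1 array, so a difference between either line and untreated cells has no replicate check, and the same holds for a single siRNA pair. Nor do the labels say that the 2 Dharmacon pairs were separate cultures, and p-values below then measure only the spread between these arrays, which may be technical.

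Insulin and IGF-1 activate receptor tyrosine kinases, which phosphorylate the IRS adaptors on tyrosine. Phosphorylated IRS proteins dock the regulatory subunit of PI3K, and the lipid that PI3K makes recruits the kinase AKT, which restrains the FOXO transcription factors and stimulates mTOR. HEK293 cells are known for their use of IRS4, an adaptor with a narrow tissue range that was first isolated from this line.

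Values are log2 intensities as deposited, from 2.80 to 14.47, with a median of 5.47 over all arrays and probe sets. A probe set with a mean below that median is called dim here, since no detection calls were used. The array means lay between 6.25 and 6.30. BRD1 itself, as the mean of its probe sets, was read at 7.61 in untreated cells, and stood 1.66 above that in the BRD1-S line and 1.68 above it in the BRD1-L line, with differences in the siRNA pairs of -0.75, -0.84 and -1.00. Of the HEK293 marker list, which holds IRS4, 15 of 21 probe sets were not dim. In BRD1-L cells NEFM and NEFL differed from untreated by -3.75 and -3.35 and KRT8 by 2.66, as gene means. Of the rest of the list, ENO2 differed by 1.36, KRT18 by 0.60, VIM by 0.36, IRS4 by 0.09 and PAX2 by -0.44. The leukocyte, hepatocyte, fibroblast and endothelial lists had 0 of 10, 0 of 10, 0 of 19 and 0 of 9 probe sets at or above the median. The control siRNA arrays did not stand together: 0.524% of all probe sets differed by more than 1.5-fold (0.585 on the log2 scale) between the Qiagen and Dharmacon 1 controls, 6.57% between the Qiagen and Dharmacon 2 controls and 7.16% between the controls of both Dharmacon pairs. Levels are compared below only within a probe set, never between probe sets or genes, and in bulk RNA a low value in every cell and an absence from some cells cannot be told apart.

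Among the members, 24 of the 34 probe sets were not dim. All 5 probe sets of INSR, all 3 of IGF2R, both of IRS2, all 8 of PIK3R1 and the single ones of IRS4 and IGFBP2 were at or above the median, as were 4 of the 7 of IGF1R. None of the 3 probe sets of IRS1 and none of the 4 of IGFBP4 reached it. Over the 9 arrays the widest range of a gene mean belonged to IRS4, at 1.25, followed by IRS2 at 0.97 and IGFBP2 at 0.91, and the narrowest to IGFBP4 at 0.17. The heat map of all member probe sets shows where each of them was read higher or lower.

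**Figure D1:**
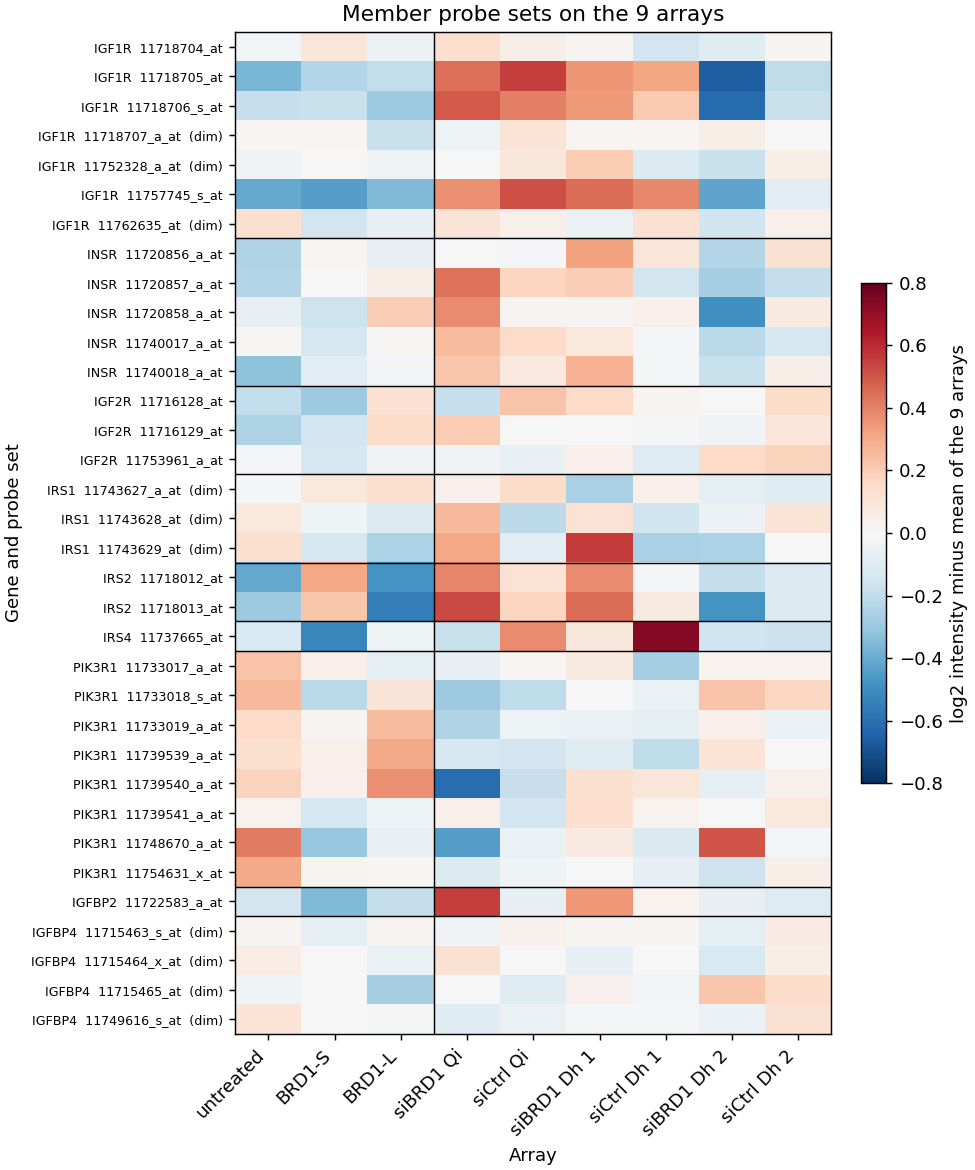
Log2 intensity of each of the 34 member probe sets (rows, by gene) on the 9 arrays (columns, Qi Qiagen, Dh Dharmacon), with the mean of the 9 arrays subtracted; dim marks a probe set with a mean under 5.47. IGF1R shows 3 probe sets that are red on all 4 arrays of the Qiagen and Dharmacon 1 pairs, IRS4 is reddest on the Dharmacon 1 control siRNA array, and IRS2 is red in BRD1-S and blue in BRD1-L cells.

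Against untreated cells, IRS2 was the member read highest in BRD1-S cells. The gene encodes a broadly expressed adaptor that couples the insulin and IGF-1 receptors to PI3K and whose transcription FOXO factors are known to activate. Its probe set 11718012_at was read at 6.13 in untreated, 6.85 in the BRD1-S and 6.06 in the BRD1-L line, at 6.93 and 6.66 on the BRD1 siRNA and control siRNA arrays of the Qiagen pair, at 6.92 and 6.53 in the Dharmacon 1 pair and at 6.35 and 6.43 in the Dharmacon 2 pair. The second probe set, 11718013_at, gave 6.37, 6.88, 6.10, 7.19, 6.83, 7.10, 6.73, 6.18 and 6.55 in the same order of arrays. On both, the BRD1 siRNA arrays of the Qiagen and Dharmacon 1 pairs were highest and BRD1-S next, while BRD1-L was lowest of all 9. BRD1-S exceeded untreated cells by 0.72 (1.64-fold) on 11718012_at and by 0.51 on 11718013_at, so that only the first passed 1.5-fold. For BRD1-L against untreated cells the differences were -0.07 and -0.27.

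The choice of control array bears on these IRS2 values. The untreated array differed from the mean of the 3 control siRNA arrays by -0.41 and -0.33 on the respective IRS2 probe sets. Set against that mean, BRD1-S was higher by 0.31 and 0.18, neither past 1.5-fold, and BRD1-L differed by -0.48 and -0.60. Compared directly, BRD1-L minus BRD1-S came to -0.79 and -0.78, and these were the only member probe sets past 1.5-fold between both lines, 2 of 34 where 3.95% of all probe sets differed that much in either direction.

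IRS4 differed from its control array in the opposite direction to IRS2 in BRD1-S cells and in the Qiagen and Dharmacon 1 pairs. Its single probe set, 11737665_at, was read at 7.51 in untreated, 7.11 in the BRD1-S and 7.59 in the BRD1-L line, at 7.45 and 8.01 on the BRD1 siRNA and control siRNA arrays of the Qiagen pair, at 7.72 and 8.36 in the Dharmacon 1 pair and at 7.47 and 7.46 in the Dharmacon 2 pair. BRD1-S cells gave the lowest value of all and the Qiagen and Dharmacon 1 controls the highest, while the other 6 arrays lay between 7.45 and 7.72. The control siRNA arrays spread over 7.94 ± 0.45 (SD, n = 3), against 7.55 ± 0.15 (SD, n = 3) for BRD1 siRNA. BRD1-S minus untreated was -0.40, which did not pass 1.5-fold, whereas BRD1-S minus the mean of the control siRNA arrays was -0.83.

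IRS2 and IRS4 are shown by sequence because, of the 16 RefSeq promoter windows of the 10 genes, only theirs hold the core of an insulin response element, CAAAACA or its reverse complement TGTTTTG, the element through which FOXO factors are known to act on insulin-repressed genes. Each window is the 250 bases before a transcription start on GRCh38.p14, both strands were searched, and the match is in capitals. The core occurs in 4.3% of the 35116 windows of all genes. The motifs were chosen after the promoter sequences were seen, so this share is no test of these windows. Both genes lie on the minus strand, and the lines below run 5′ to 3′ towards the start.
IRS2, chr13:109786584-109786833, minus strand: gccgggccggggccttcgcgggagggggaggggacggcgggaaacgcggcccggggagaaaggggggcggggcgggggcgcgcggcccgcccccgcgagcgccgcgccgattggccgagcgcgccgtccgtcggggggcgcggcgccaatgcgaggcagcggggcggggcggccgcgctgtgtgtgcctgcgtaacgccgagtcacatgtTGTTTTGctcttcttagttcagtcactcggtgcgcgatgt
IRS4, chrX:108736378-108736627, minus strand: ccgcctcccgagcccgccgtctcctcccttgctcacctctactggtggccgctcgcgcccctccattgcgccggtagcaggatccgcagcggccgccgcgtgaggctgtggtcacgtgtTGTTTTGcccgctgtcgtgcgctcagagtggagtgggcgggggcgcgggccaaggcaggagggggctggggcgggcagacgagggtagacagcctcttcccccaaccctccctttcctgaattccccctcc
The match begins 40 bases before the start in IRS2 and 131 bases before it in IRS4, and 11 letters around it, tgttgttttgc, are the same in both. A second IRS4 window, for another start, holds no match. The FOXO core GTAAACA (reverse complement TGTTTAC, 2.98% of all windows) was found in none of the 16. The E-box CACGTG (6.34%) was found once in the IRS4 window printed above and 3 times in that of IGF2R. A match of letters is a description of the window, and none of the arrays measured binding there.

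The plot of selected probe sets shows IRS2 and IRS4 beside the other members that passed 1.5-fold between some of the arrays.

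**Figure D2:**
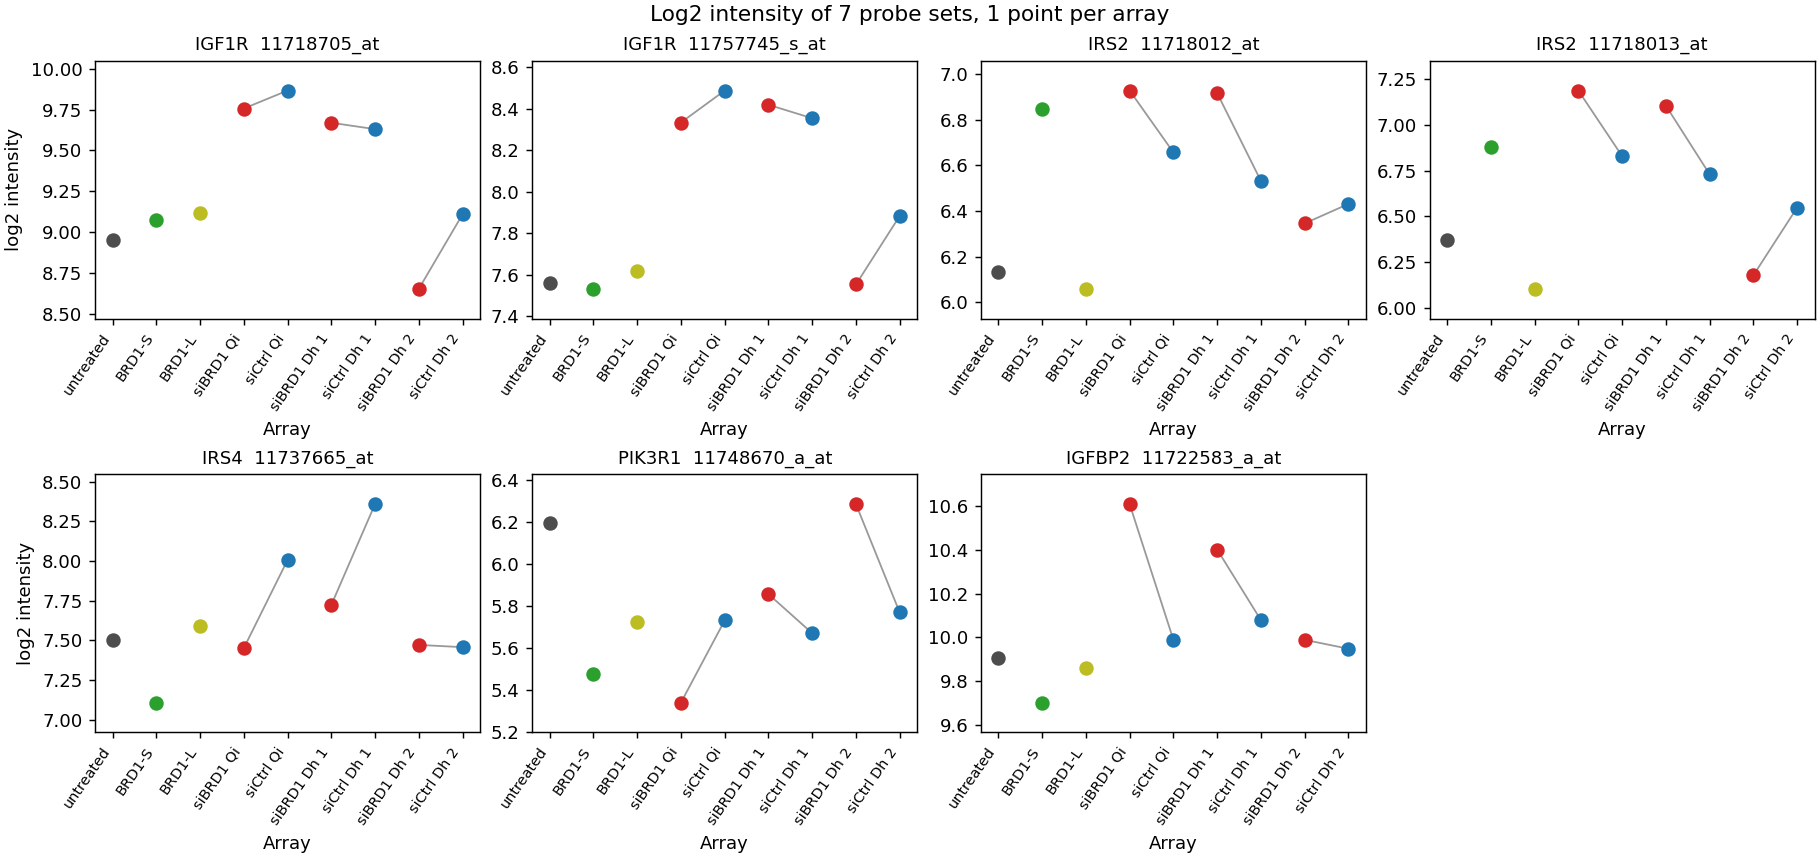
Log2 intensity of the 7 member probe sets that were not dim and passed 1.5-fold in at least 1 comparison of arrays (panels, each with its own vertical axis) on the 9 arrays (horizontal axis), 1 point per array, with a line joining the BRD1 siRNA and control siRNA arrays of a pair. On IRS2 the BRD1-S point lies at 6.85 and 6.88 against 6.13 and 6.37 for untreated cells, IRS4 spans 7.11 to 8.36, and IGF1R 11718705_at is at 9.63 or more on 4 arrays and at 9.12 or less on the other 5.

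PIK3R1 encodes the p85α, p55α and p50α regulatory subunits, which stabilise the catalytic subunit and bind phosphorylated IRS proteins. In BRD1-S cells all 8 of its probe sets were read below untreated cells, by -0.09 to -0.72. The one past 1.5-fold, 11748670_a_at, was read at 6.20 in untreated, 5.48 in the BRD1-S and 5.73 in the BRD1-L line, at 5.34 and 5.73 on the BRD1 siRNA and control siRNA arrays of the Qiagen pair, at 5.86 and 5.67 in the Dharmacon 1 pair and at 6.28 and 5.77 in the Dharmacon 2 pair. Untreated cells and the Dharmacon 2 siRNA array were high there and the Qiagen siRNA array lowest, so BRD1-S lay inside the range of the other arrays. The difference of -0.72 is a ratio of 0.608. Here too the untreated array stood apart from the control siRNA arrays, above their mean on all 8 probe sets by 0.04 to 0.47. Against that mean the BRD1-S differences were of both signs, from -0.25 on 11748670_a_at to 0.16 on 11739539_a_at. In BRD1-S cells the mean of the 8 differed by -0.27 from untreated cells but by -0.01 from the averaged controls. In BRD1-L cells 11748670_a_at differed from untreated by -0.47, and the mean of the 8 by -0.10.

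Counted over all members, BRD1-S differed from untreated cells by more than 1.5-fold upwards on 1 of 34 probe sets (IRS2) and downwards on 1 (PIK3R1), against a background of 1.12% and 0.326% of all probe sets. The median difference of the 34 was -0.09 and that of all probe sets 0.00, with 12 members above 0 and 21 below. No member passed 1.5-fold in either direction in BRD1-L cells, where 3.67% of all probe sets were higher and 2.42% lower, and the median of the members was -0.02. With so few members past the threshold, these counts stand on single probe sets, and they are not a result about the members as a group. Both comparisons use the same untreated array.

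IGF1R, the IGF-1 receptor kinase, hardly differed between the overexpressing lines and untreated cells but split the siRNA arrays. Probe set 11718705_at was read at 8.95 in untreated, 9.08 in the BRD1-S and 9.12 in the BRD1-L line, at 9.76 and 9.87 on the BRD1 siRNA and control siRNA arrays of the Qiagen pair, at 9.67 and 9.63 in the Dharmacon 1 pair and at 8.65 and 9.11 in the Dharmacon 2 pair. On 11718706_s_at the values were 7.66, 7.67, 7.56, 8.34, 8.25, 8.19, 8.06, 7.23 and 7.67, and on 11757745_s_at 7.56, 7.53, 7.62, 8.33, 8.49, 8.42, 8.35, 7.55 and 7.88, in the same order. The lowest of the 4 Qiagen and Dharmacon 1 arrays was above the highest of the other 5 on each of these 3 probe sets, at 9.63 against 9.12, 8.06 against 7.67 and 8.33 against 7.88. Both arrays of a pair lay on the same side. This split was noticed after the values were seen and was given no test: 3 of 34 member probe sets lay above in this way, all of IGF1R, where 6.06% of all probe sets did, and 1 lay below, PIK3R1 11739539_a_at, where 4.9% did. The part of this split in the siRNA differences was not tested.

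The s in the names of 2 of these probe sets marks probes shared by several transcripts. Another probe set of the gene that was not dim, 11718704_at, did not show the split and stayed between 7.21 and 7.49, and the dim 11718707_a_at, 11752328_a_at and 11762635_at spanned 0.29, 0.38 and 0.29. Between BRD1 siRNA and its control the 3 split probe sets differed by -0.11, 0.09 and -0.15 in the Qiagen pair and by 0.04, 0.13 and 0.07 in the Dharmacon 1 pair. In the Dharmacon 2 pair they differed by -0.46, -0.44 and -0.33. Among the controls alone, 11718705_at and 11757745_s_at were past 1.5-fold higher in the Qiagen than in the Dharmacon 2 control (2 of 34 members, against 6.57% of all probe sets in either direction), and IRS4 was so in the Dharmacon 1 against the Dharmacon 2 control (1 of 34, against 7.16%), while no member differed that much between the Qiagen and Dharmacon 1 controls (0.524%).

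INSR, the insulin receptor kinase, was read higher in both overexpressing lines than in untreated cells on 3 of its 5 probe sets, without passing 1.5-fold. One of these, 11740018_a_at, was at 8.34 in untreated, 8.58 in the BRD1-S and 8.64 in the BRD1-L line, at 8.89 and 8.74 on the BRD1 siRNA and control siRNA arrays of the Qiagen pair, at 8.94 and 8.65 in the Dharmacon 1 pair and at 8.49 and 8.71 in the Dharmacon 2 pair. Untreated cells were lowest of all arrays. As a mean over its 5 probe sets INSR differed from untreated cells by 0.10 in the BRD1-S line and 0.20 in the other. Its pair differences were 0.18, 0.19 and -0.26. The higher reading in the lines depended on the untreated array. With averaged siRNA controls as the reference instead, the gene mean differed by -0.09 for BRD1-S and 0.01 for BRD1-L. On that reference 11720856_a_at, 11720857_a_at and 11740018_a_at, the 3 higher in both lines, gave -0.05, 0.05 and -0.12 for BRD1-S. For BRD1-L they gave -0.13, 0.10 and -0.06, so only 11720857_a_at stayed above the reference in both lines.

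IGF2R clears IGF-2 from the surface and sorts lysosomal enzymes, and it has no kinase. Its probe set 11716129_at was read at 9.78 in untreated, 9.88 in the BRD1-S and 10.17 in the BRD1-L line, and at no more than 10.23 on the siRNA arrays, all of them above untreated cells. The BRD1-L difference of 0.39 was the highest of any member in that line. The other probe sets, 11716128_at and 11753961_a_at, differed from untreated by 0.32 and -0.01 in BRD1-L cells. As a gene mean IGF2R stood 0.23 above untreated cells with BRD1-L and -0.04 from them with BRD1-S, with pair differences of -0.06, 0.09 and -0.10. Against the averaged siRNA controls the BRD1-L difference was 0.12 on 11716129_at and 0.02 as a gene mean, and the gene mean of BRD1-S differed by -0.25.

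IGFBP2, a secreted protein that holds IGFs away from their receptors, was read higher with BRD1 siRNA in each pair. Its probe set 11722583_a_at was at 9.91 in untreated, 9.70 in the BRD1-S and 9.86 in the BRD1-L line, at 10.61 and 9.99 on the BRD1 siRNA and control siRNA arrays of the Qiagen pair, at 10.40 and 10.08 in the Dharmacon 1 pair and at 9.99 and 9.95 in the Dharmacon 2 pair. The Qiagen and Dharmacon 1 siRNA arrays were the 2 highest of the 9, but the Dharmacon 2 siRNA array lay among the controls, so the treatments overlapped. Pair differences were 0.62, 0.32 and 0.04, only the first of them past 1.5-fold. Averaged over the pairs the difference was 0.33 ± 0.29 (SD, n = 3). IGFBP4, a binding protein that inhibits IGF action, was dim throughout, between 3.49 and 4.53 on its 4 probe sets, and its gene mean differed by at most 0.12 in size in any of the 5 comparisons with a control.

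IRS1, the other broadly expressed adaptor, was dim as well, and one of its probe sets gave the highest pair difference among the members. This was 11743629_at, read at 4.90 in untreated, 4.63 in the BRD1-S and 4.52 in the BRD1-L line, at 5.08 and 4.68 on the BRD1 siRNA and control siRNA arrays of the Qiagen pair, at 5.33 and 4.51 in the Dharmacon 1 pair and at 4.52 and 4.77 in the Dharmacon 2 pair. Differences were 0.40, 0.82 and -0.25 in the pairs. The second probe set, 11743628_at, differed by 0.47, 0.28 and -0.16 in the same pairs and the third, 11743627_a_at, by -0.10, -0.30 and 0.02, so the probe sets of IRS1 disagreed in sign.

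For IRS2, IRS4 and IGFBP2 the Qiagen and Dharmacon 1 pairs gave differences of the same sign, and the Dharmacon 2 pair did so only for IGFBP2, at 0.04. As gene means, INSR (0.18 and 0.19) and IRS1 (0.25 and 0.27) also had the same sign in the Qiagen and Dharmacon 1 pairs. IGF1R, IGF2R, PIK3R1 and IGFBP4 did not. On the respective IRS2 probe sets, BRD1 siRNA minus control was 0.27 and 0.36 in the Qiagen pair, 0.38 and 0.37 in the Dharmacon 1 pair, and -0.09 and -0.37 in the Dharmacon 2 pair. IRS4 differed by -0.55, -0.64 and 0.01. These pairs share no control array, though the Qiagen and Dharmacon 1 controls were alike, with 0.524% of all probe sets past 1.5-fold between them. In the Qiagen pair 1 of 34 member probe sets was past 1.5-fold higher (IGFBP2) and 0 lower, against 3.71% of all probe sets in each direction. The Dharmacon 1 pair had 1 higher (IRS1) against 3.96%, and 1 lower (IRS4) against 1.78%. In the Dharmacon 2 pair no member passed in either direction, against 0.616% higher and 0.782% lower. Medians of the 34 differences were 0.03, 0.10 and -0.12, beside 0.00, 0.01 and -0.02 for all probe sets, and the numbers above and below 0 were 19 and 15, 26 and 5, and 9 and 24.

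**Figure D3:**
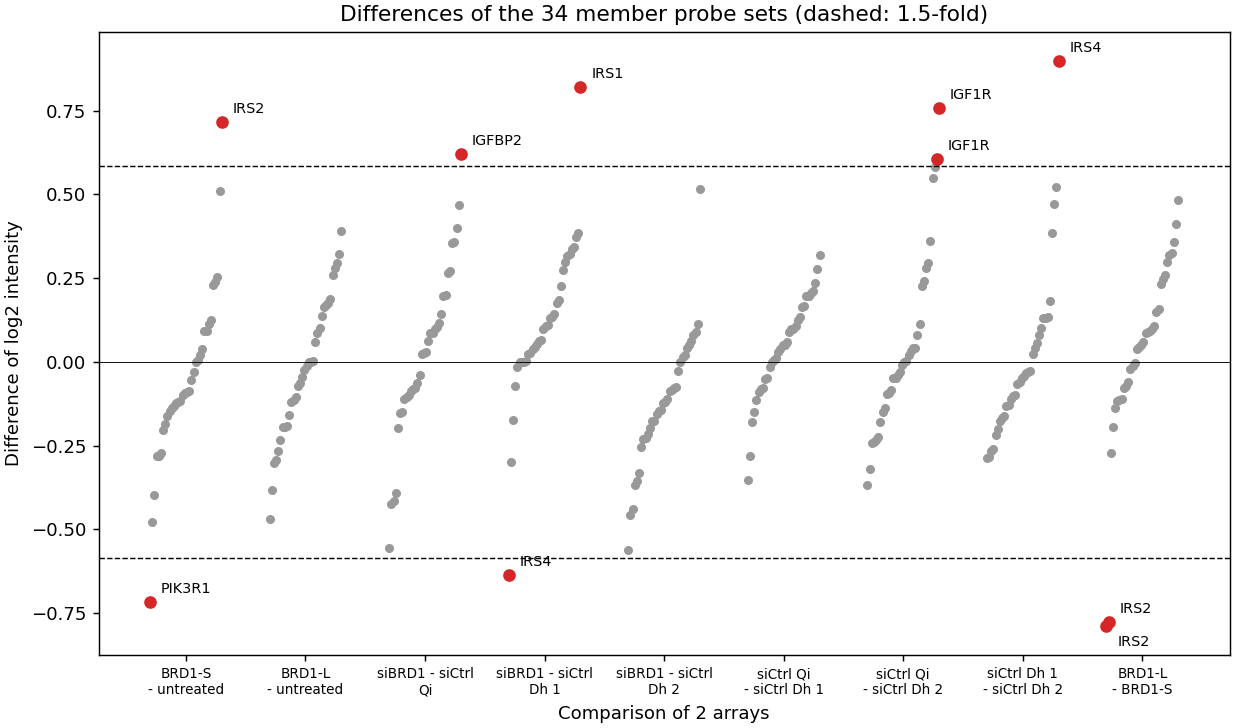
Difference of log2 intensity between the arrays named on the horizontal axis (first minus second), for each of the 34 member probe sets, sorted within a comparison; dashed lines mark 1.5-fold, and probe sets past it are red and named. The single points past the lines are IRS2 at 0.72 and PIK3R1 at -0.72 for BRD1-S, IGFBP2 at 0.62 in the Qiagen pair, and IRS1 at 0.82 and IRS4 at -0.64 in the Dharmacon 1 pair, and comparisons of control arrays alone hold 3 such points and BRD1-L minus BRD1-S holds 2, both of IRS2.

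In the replicated comparison, BRD1 siRNA against control siRNA over all 3 pairs with the kit as a covariate, no member passed the test. With limma and Benjamini-Hochberg adjustment over all 49386 probe sets, 0 were called at an adjusted p of 0.05 (0.0%), and the smallest adjusted p was 0.646. At an unadjusted p under 0.05 there were 2498 (5.06%), none of them a member. The member with the smallest p was IGFBP2, at a difference of 0.33 (SE 0.15, limma adjusted p = 0.847). IRS4 had -0.39 (SE 0.24, limma adjusted p = 0.847), and IRS2 on 11718012_at had 0.19 (SE 0.16, limma adjusted p = 0.87). When the pair replaced the kit in the model, again 0 probe sets were called. IRS4 was the only member at an unadjusted p under 0.05, with an SE of 0.15 (limma adjusted p = 0.66), where 3574 of all 49386 probe sets had such a p.

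The Dharmacon 2 arrays bear on these tests. Without the Dharmacon 2 control array 106 probe sets were called by limma, 101 higher and 5 lower, with no member among them, and IRS4 differed by -0.67 (limma adjusted p = 0.127). Without the Dharmacon 2 siRNA array none was called, and 5 of the 34 member probe sets had an unadjusted p under 0.05, both of IRS2 among them, at adjusted p of 0.426 or more. In that fit 4891 of all 49386 probe sets had such an unadjusted p, so these 5 are not a result about the members. The interaction of siRNA and kit, which asks whether the Qiagen pair differed from the Dharmacon pairs, called 0 probe sets, with 912 at an unadjusted p under 0.05 and no member among these.

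The neighbouring genes of the pathway were read from lists of ligands, other binding proteins, other PI3K subunits, receptor adaptors and brakes, lipid phosphatases, the AKT and mTOR branch, FOXO factors and the RAS and ERK branch. Of 67 listed genes 54 had a probe set, 189 in all, and IGF1, the only ligand read, was dim at 3.74 to 3.87 as a gene mean. In BRD1-S cells 2 of the 189 were past 1.5-fold higher and 0 lower, against 1.12% and 0.326% of all probe sets. These were single probe sets of IGFBP7, at 1.04, and FOXO4, at 0.73, while the median of the 189 was -0.01. In BRD1-L cells 5 were higher and 6 lower, against 3.67% and 2.42% of all probe sets. Among listed genes read above the median of all values, the one with every probe set past 1.5-fold in the same direction was EIF4EBP1, an inhibitor of cap-dependent translation that mTOR inactivates, with all 3 lower and a gene mean of 10.24, at -0.76 from untreated cells.

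In the siRNA comparisons, the Qiagen pair had 15 of the 189 higher and 6 lower, against 3.71% of all probe sets each way. In the Dharmacon 1 pair 15 were higher and 1 lower, against 3.96% and 1.78%, and in the Dharmacon 2 pair 0 and 3, against 0.616% and 0.782%. The medians were 0.06, 0.10 and -0.04. Among them INPPL1, a phosphatase that removes the lipid product of PI3K, differed by 0.73, 0.81 and -0.09 as a gene mean, and MAP2K1, the kinase that activates ERK, by 0.64, 0.91 and 0.09. Both were singled out after their values were seen. The Qiagen and Dharmacon 1 control arrays were the lowest of the 9 for each, at 7.22 and 7.12 for INPPL1 and at 9.31 and 9.16 for MAP2K1.

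The study lists 6 genes under IGF-1 signalling for BRD1-S, 5 of which had a probe set under their symbol alone. It chose that list on these same arrays, from genes past 1.5-fold in BRD1-S cells, so the counts are not independent evidence of its direction. For the same reason the contrast with BRD1-L cells below is not independent evidence. Apart from the arrays, the study reports IGF-1 signalling as the top pathway of the BRD1-S promoter targets and protein partners. Those data were not analysed here. Of the list's 21 probe sets 5 were past 1.5-fold higher and 1 lower in BRD1-S cells, against 1.12% and 0.326% of all probe sets. The immediate early gene FOS differed by 0.58 as a gene mean, CCN1, a secreted matrix protein, by 0.68, IRS2 by 0.61 and ATM, a DNA damage kinase, by 0.23, while PIK3R1 differed by -0.27. In BRD1-L cells 0 of the 21 passed in either direction.

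Among the members only IRS4 had, as a gene mean, both a level above the median and a range over 1 across the arrays. There were 844 such genes on the array, IRS4 included, and its pattern was compared with that of the others. ABHD14B was most like it, with a Pearson r of 0.946 over the 9 arrays, followed by ROBO2 at 0.900. The arrays share pairs and a normalization, so these are descriptions of 9 points.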

How the data were processed

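RNA of HEK293T cells had been hybridised to 9 Affymetrix U219 arrays, 1 per sample. The authors deposited log2 intensities. For its fold changes the study describes scaling each probe's brightness by the array's mean, and whether the deposited values had only that scaling was not tested. How probes were summarised and background removed is not given in the sources used here. Sorted values of the arrays differ from their mean by at most 0.0774. Signal over background could be judged by level alone, and the number of arrays limits the precision.

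Probe sets were named from GEO's platform annotation; 1327 with several symbols and 2800 with none were kept in shares of probe sets only. As in the study's methods, a probe set differs when it passes 1.5-fold between 2 arrays, with no test. For the 6 siRNA arrays, limma (version 3.58.1, R 4.3.3) took the kit as a covariate, and p was adjusted by Benjamini-Hochberg with a threshold of 0.05. This step was tested on simulated data. Arrays of the same kit and number deviated together from their group means (correlations 0.263, 0.182 and 0.252 for Qiagen, Dharmacon 1 and Dharmacon 2), so an alternative fit took the pairs as a block; the Dharmacon 1 siRNA array correlated at 0.152 with the Qiagen control.

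All members were named, with each probe set described by its counts. Of the pathway lists, genes were named where every probe set passed 1.5-fold in one direction and at least the brighter of both arrays exceeded the median of all values, or where the study lists them under IGF-1 signalling; IGF1, IGFBP7, FOXO4, INPPL1 and MAP2K1 were named after their values were seen. Motifs were chosen after the promoter sequences were seen. Members and lists were chosen with earlier results of these data known. Alternatives were other array scalings, control arrays, thresholds and filters, gene means, a variance trend, other sets of arrays, the pair block and each siRNA array left out. Promoters are from RefSeq (GRCh38.p14). Python 3.11.15, numpy 2.4.6, pandas 2.3.3 and matplotlib 3.10.9 were used for the rest. PIK3R2 and the ChIP-seq and proteomic data were not analysed here.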

Additional observations from a re-analysis of the deposited data

Results flagged for a closer look

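As gene means, PIK3R1 and IGFBP4 had pair differences of one sign with the Qiagen kit and of the other sign with both Dharmacon pairs. PIK3R1 gave -0.13 in the Qiagen pair against 0.11 and 0.05 in the Dharmacon pairs. IGFBP4, which was dim on every probe set, gave 0.0298 against -0.0042 and -0.105. For the gene means the difference between kits was not tested. On single probe sets the limma interaction of siRNA and kit called 0 members and had none at an unadjusted p under 0.05.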

How the results depend on the processing

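Some counts of members past 1.5-fold changed with the setting. At 2-fold they were 0 for BRD1-S, 0 for the Qiagen pair and 0 for the Dharmacon 1 pair. As gene means, 1 member passed for BRD1-S (IRS2) and 1 in the Dharmacon 1 pair (IRS4). With the 3 control siRNA arrays averaged as the control 2 passed for BRD1-L, 2 in the Qiagen pair, 1 in the Dharmacon 1 pair and 3 in the Dharmacon 2 pair; for BRD1-S the count stayed at 2, but with IRS4 and IGF1R 11757745_s_at in place of IRS2 and PIK3R1. With dim probe sets left out the Dharmacon 1 pair had 1, and with arrays centred or quantile normalized the Dharmacon 2 pair had 1. The share of all probe sets was not computed under these other settings, so the counts have no background and are not a result about the members. Probe sets called by limma in the siRNA comparison were 0 to 106 with 1 array left out, 106 without control siRNA Dharmacon 2 (the lone Dharmacon control left is then assumed to vary like the other arrays), and 0 under every other setting, the pair as a replicate block included. Over 432 fits of a member probe set the sign changed in 33, in 0 of which both differences exceeded their SE, and the smallest adjusted p was 0.127. Of 170 recomputed gene means 39 moved by more than the SD of the controls, 23 of them with the averaged controls. Where the main difference passed 1.5-fold, 0 changed sign. Smaller differences did change sign, such as that of INSR in BRD1-S cells, from 0.10 to -0.09 with the averaged controls. With 1 array for each line, its differences cannot be told apart from those between arrays of like cells.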
